A study of Mus musculus with 24 samples.

Results

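CpG pairs of mouse mitochondrial DNA (mtDNA) are the places where a cytosine of the L strand is followed by a guanine, so that the H strand also carries a cytosine 1 base further on. A pair was taken wherever an L-strand cytosine at position p and an H-strand cytosine at position p+1 were both listed in the deposited values. This rule gave 277 pairs, or 554 of the 5829 listed cytosines. The mouse mtDNA reference (mm10, chrM, 16299 bp) holds 287 CG dinucleotides, and 10 of them had neither cytosine listed. The L strand is the strand written in the reference.

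In nuclear DNA of mammals, 5-methylcytosine (5mC) is found chiefly at CpG, and because CpG reads the same on both strands a methylated site usually carries 5mC on both. DNMT1 restores this symmetry after replication by methylating the new strand opposite a methylated CpG. Bisulfite converts unmodified cytosine to uracil and leaves 5mC, so a cytosine that remains cytosine in a read is called unconverted, whether it was methylated or escaped the reaction. For the L strand the study proposes a further possible source, which is given below with the guanine counts.

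The values came from 24 libraries made by post-bisulfite adaptor tagging, in which adaptors are added by random priming after bisulfite treatment. Native mtDNA was linearised from highly purified mitochondria of the embryonic stem cell (ESC) line E14 (3 preparations) and of C57BL/6J brain (2) and liver (2), and synthetic mtDNA was a single PCR-generated preparation of C57BL/6J sequence free of 5mC. Bisulfite was applied for 5, 15, 40 and 60 min to synthetic mtDNA, to the first preparation of brain and of liver and to the first and second of ESCs, for 60 and 90 min to the third of ESCs, and for 60 min alone to the second of each tissue. All 24 libraries carried λDNA in the same tube. Each preparation had a single library per duration, so preparations were the replicates, and synthetic mtDNA had none. The labels used here give neither the age nor the number of the animals.

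A pair was counted as usable in a library when at least 10 reads covered each of its cytosines. At 5 min, 218 to 239 pairs were usable per library, and at 60 min 126 to 163 in native libraries other than brain preparation 2, which had 51, and 208 in synthetic mtDNA. In all, 209 pairs were usable in at least 1 library of 60 min and 49 in all 8, a number that was 103 without brain preparation 2. 18 pairs were usable in no library. The L strand set this limit: at 60 min the H-strand member alone reached 10 reads in 1033 cases of a pair in a library, and the L-strand member alone in 53. Among usable pairs of 60 min libraries, an L-strand member had a median of 26 to 62.5 reads and an H-strand member one of 83 to 610, and at these depths 3 unconverted reads amount to 4.8 to 11.5% for L and 0.492 to 3.61% for H.

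Among the 49 pairs usable in all 8 libraries of 60 min, 6 were unconverted at 50% or more on the L strand in every library, with hardly any unconversion on the H strand. Their surroundings are shown first, because they carry most of the difference between strands. Each line gives 30 bases of the L strand, 5′ to 3′, from the RefSeq mtDNA sequence of mm10, with the CpG in capitals. The lines lie at chrM:13910-13939, chrM:4782-4811, chrM:14940-14969, chrM:4339-4368, chrM:12527-12556 and chrM:7126-7155.
ND6 pair 13924: attaaacctaaaaaCGatccaccaaaccct
ND2 pair 4796: tattcttttatactCGcctaatttattcca
CYTB pair 14954: ccccatattaaaccCGaatgatatttccta
ND2 pair 4353: aattcaaatttaccCGctactcaactctac
ND5 pair 12541: attccaccccctcaCGactaataataactt
COX2 pair 7140: cctctatatcatctCGctaatattaacaac

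For contrast, the pairs with the highest H-strand rates among the same 49 (besides pair 7140) and the only one whose L-strand mean lay between 5 and 50% read as follows, at chrM:1760-1789, chrM:9351-9380, chrM:1758-1787, chrM:731-760 and chrM:10060-10089. Pairs 1772 and 1774 lie 2 bases apart and share reads.
mt-Rnr2 pair 1774: tctccaggcatacgCGtataacaactcgga
COX3 pair 9365: tgacttttcctataCGtctccatttattga
mt-Rnr2 pair 1772: attctccaggcataCGcgtataacaactcg
mt-Rnr1 pair 745: atcaaacataaaaaCGttaggtcaaggtgt
ND4L pair 10074: accatcttagttttCGcagcctgcgaagca

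Both strands of a pair were compared within each library after 60 min. The L-strand rates given here appear to include reads with nearly all cytosines unconverted, which the study left out. They are not comparable with the study's own L-strand rates, which were far lower. The mean L-strand rate over usable pairs was 9.001% in ESC preparation 1, 8.35% in ESC preparation 2, 9.14% in ESC preparation 3, 9.73% in brain preparation 1, 12.6% in brain preparation 2, 8.89% in liver preparation 1, 9.59% in liver preparation 2 and 9.61% in synthetic mtDNA. The mean H-strand rate was 0.464, 0.325, 0.789, 0.445, 0.637, 0.536, 0.632 and 0.398% in the same order. The strands did not overlap in these means, and synthetic mtDNA lay within the range of the native preparations on both strands. L minus H averaged 9.09 ± 1.25 percentage points (SD, n = 8) and was positive in 8 of 8 libraries. The exact two-sided sign-flip permutation test gave p = 0.0078, the smallest that 8 preparations allow. It was 0.0703 after Benjamini-Hochberg adjustment over the 9 tests of single values, so the difference does not pass 0.05 once adjusted. With p already at its smallest, a larger difference could not have lowered the adjusted value. Without brain preparation 2, whose 51 usable pairs stand apart from the other libraries, L minus H averaged 8.67 percentage points.

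This mean rested on few pairs. The median L-strand rate was 0% in all 8 libraries, and the median of L minus H over pairs averaged 0. Between 80.1 and 85.7% of the usable pairs had rates within 5 percentage points on both strands, and in 7 of the 8 libraries more pairs had a higher rate on H than on L. In synthetic mtDNA, 87 pairs were higher on L, 96 on H and 25 equal. The strands differ in depth, and this bears on such counts: 53.8 to 72.0% of the usable pairs had no unconverted read on L, and 23.6 to 58.7% none on H. L-strand rates of 50% or more were found at 13, 9 and 11 pairs in ESC preparations 1 to 3, 15 and 6 for brain, 12 and 13 for liver, and 18 for synthetic mtDNA. The number of usable pairs differed between libraries. As shares of it, these counts were 9.09, 7.14, 7.80, 9.20, 11.8, 8.82, 9.22 and 8.65% in the same order. With the pairs at 50% or more set aside, the mean L-strand rate was 1.08 to 2.31%. The limits of 50 and 5% used to sort pairs were chosen after the values were seen.

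**Figure D1:**
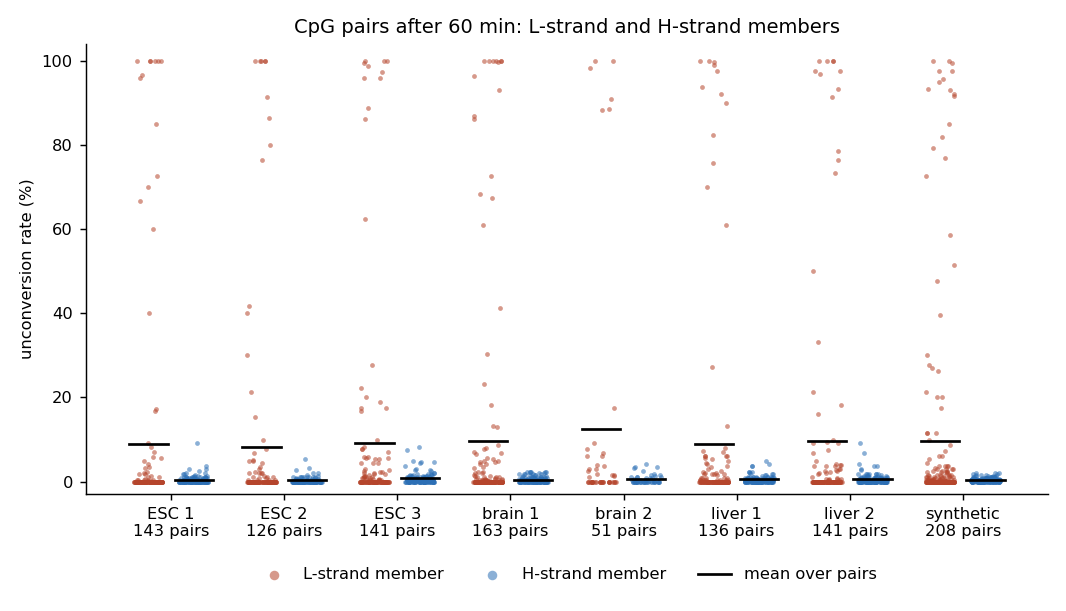
Unconversion rate (%) of the L-strand (red) and H-strand (blue) member of every usable CpG pair in the 8 libraries of 60 min; each point is 1 pair in 1 library, black bars are means over pairs, and the number of usable pairs stands under each name. L-strand means lie between 8.35 and 12.6% because a few pairs reach 50 to 100% while the median is 0%, and no H-strand member exceeds 9.1%.

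No usable CpG pair had a rate of 5% or more on both strands in any of the 8 libraries. Among the 49 pairs usable in all 8, the mean H-strand rate over the libraries was under 5% at each, and 46 were under 5% in every library. On the L strand, 42 had a mean under 5%, 6 had one of 50% or more, and pair 10074 lay between. The 6 high pairs were at 50% or more in all 8 libraries and the other 43 under 50% in all 8, so no pair of the 49 changed sides between native and synthetic mtDNA.

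ND6, ND2 and ND5 encode subunits of complex I of the respiratory chain, CYTB a subunit of complex III and COX2 a subunit of complex IV. At pair 13924, in ND6, the L-strand member was at 99.8% in the lowest native preparation, 100% at the median and 100% in the highest, and at 100% in synthetic mtDNA, while the H-strand member was at 0% in all 8 libraries, with 54 to 247 reads. At pair 4796, in ND2, the L-strand member ranged from 98.4% through a median of 100% to 100% in native mtDNA and was at 99.5% in synthetic mtDNA. Its H-strand member was at 0% in all 8 libraries. In both pairs the strands were thus at opposite ends of the scale in every preparation, synthetic mtDNA included.

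Pair 14954, in CYTB, had L-strand rates of 96.7 (lowest), 99.1 (median) and 100% (highest) in native mtDNA and 97.6% in synthetic mtDNA, against H-strand rates of 0 to 0.3%. Pair 4353, in ND2, had L-strand rates of 88.5, 96.5 and 97.5% in native mtDNA and 94.9% in synthetic mtDNA, against 0 to 0.4% on H. The lowest of these, from brain preparation 2, rested on 26 reads. Native and synthetic values of all 4 pairs overlapped on both strands.

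Pair 12541, in ND5, had L-strand rates of 76.5, 90.0 and 95.8% in native mtDNA and 79.3% in synthetic mtDNA, on 11 to 58 reads, against 0 to 0.7% on H. Pair 7140, in COX2, had L-strand rates of 72.7, 86.1 and 93.1% in native mtDNA and 76.9% in synthetic mtDNA, on 17 to 91 reads. Its H-strand member was the highest of the 6, at 1.5, 2.1 and 3.3% in native mtDNA and 1.2% in synthetic mtDNA, so that all 7 native preparations lay above the synthetic one at 60 min. This was not so at 40 min, where it was at 2.1, 2.1, 1.4 and 1.7% in ESC 1, ESC 2, brain 1 and liver 1 and at 1.7% in synthetic mtDNA.

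On the H strand, pair 1774 in mt-Rnr2, the gene of the large ribosomal RNA, had the highest mean among the 49 pairs usable in all 8 libraries, 2.39 ± 2.38% (SD, n = 8). Its H-strand member was at 1.0, 2.8 and 7.6% in ESC preparations 1 to 3, 2.0 and 1.0% for brain, 0.3 and 3.6% for liver, and 0.8% for synthetic mtDNA. The 2 highest of these rested on 66 and 55 reads, the lowest coverages among the 8. Among the same 49, pair 9365 in COX3, which encodes a subunit of complex IV, followed with 2.21 ± 3.41%, pair 1772 with 2.20 ± 3.16%, pair 7140 with 2.09 ± 0.669% and pair 745 in mt-Rnr1, the gene of the small ribosomal RNA, with 1.90 ± 1.76%. At 4 of these 5 pairs the SD between libraries was about as large as the mean or larger, with pair 7140 as the exception. The L-strand members of pairs 1774, 9365, 1772 and 745 averaged 0.163, 0.0125, 0.963 and 2.36%.

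The same 49 pairs were also ranked by the lower of their strand means, which would be high where both strands carried unconverted cytosine. The highest 5 were pair 7140 (2.09%), pair 745 (1.90%), pair 1772 (0.963%), and pairs 6639 and 6642 in COX1 (0.775% each). The last 2 lie 3 bases apart, and their L-strand means came from a single unconverted read each, in brain preparation 2. Pairs covered in fewer libraries reached similar lower-strand means, such as pair 685 (2.17% in 7 libraries), pair 351 (1.80% in 4), pair 354 (1.63% in 3) and pair 263 (1.18% in 6), all in mt-Rnr1 and picked after their values were seen.

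Synthetic mtDNA, which carries no 5mC, served as the background for native mtDNA. Over the 49 common pairs, the L-strand rate averaged 12.2 ± 0.480% (SD, n = 7) in native mtDNA, from 11.5 to 13.1%, and 11.7% in synthetic mtDNA. 6 of the 7 native preparations were above the synthetic one, and the 7 differences ranged from -0.186 to 1.40 percentage points. An exact permutation test, in which each of the 8 preparations took the place of synthetic mtDNA in turn, gave p = 0.375, where 0.125 is the smallest that 7 against 1 allows. The H-strand rate averaged 0.576 ± 0.214% in native mtDNA, from 0.280 to 0.882%, and 0.408% in synthetic mtDNA, with 5 of 7 preparations above it and p = 0.625 in the same exact permutation test. L minus H was 11.7 ± 0.477 percentage points in native and 11.3 in synthetic mtDNA, and the exact permutation test gave p = 0.5. The L-strand difference of 0.524 percentage points was slightly larger than the SD between native preparations, the other differences were smaller than theirs, and the design cannot reach 0.05. The sizes depended on how rates were averaged: the L-strand difference was 0.1295 with a coverage minimum of 20, 4.39 with rates pooled over reads, 0.00213 with each library's own usable pairs and -0.286 as a median over pairs, and the H-strand difference, 0.168, was 0.0205 with a minimum of 20 and -0.129 as a median. Without brain preparation 2, which raised the number of common pairs to 103, the native minus synthetic difference was 0.359 percentage points on L and 0.144 on H.

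Each cytosine was then compared between native reads, summed over preparations, and synthetic reads by Fisher's exact test of unconverted against converted calls, with Benjamini-Hochberg adjustment over all 4129 cytosines tested on both strands. At 60 min, 145 L-strand and 269 H-strand members of CpG pairs were tested, in 140 pairs on both strands. On the L strand, 0 of 145 members were called higher and 0 lower in native mtDNA, where 0.532% of all L-strand cytosines tested were called higher and 1.24% lower. On the H strand, 0 of 269 were called in either direction, where 0.0534% of all H-strand cytosines were called higher and 0.0534% lower. With so few calls at any cytosine, a count of 0 among members is near the background. At an unadjusted p under 0.05, 16 of the 414 members (3.86%) and 7.07% of all cytosines tested stood out in Fisher's exact test. limma on the logit of each preparation's rate, with a single synthetic library, called 0 of all 4129 cytosines, so its count of 0 members says nothing about CpG. At an unadjusted p under 0.05 it had 49 of the 414 members (11.8%) and 11.8% of all cytosines. The calls over all cytosines, 42, fell to 21 without ESC preparation 1 and to 5 in the libraries of 40 min. They rose to 52 without liver preparation 1 and to 52 without liver preparation 2. The count of members stayed at 0 throughout. In the 140 pairs tested on both strands, native mtDNA was higher on both in 32, lower on both in 16 and in opposite directions in 56, and 36 had no difference on at least 1 strand. Native reads were summed over preparations and set against a single synthetic library. At rates near 0, single reads set the direction: the L-strand member of pair 6639 had 1 unconverted of 331 native reads and 0 of 216 synthetic reads. These directions were not tested, and other cytosines were not counted in this way.

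The 2 members nearest to a call, picked after their values were seen, were the H-strand member of pair 15081 in CYTB, at 0.393% of summed reads in native and 0.906% in synthetic mtDNA (adjusted p = 0.178, Fisher's exact test), and the L-strand member of pair 4064 in ND2, at 97.3% and 85.0% (adjusted p = 0.240, Fisher's exact test). For the H-strand member of pair 7140, 1.99% of the summed reads were unconverted in native and 1.18% in synthetic mtDNA, and the adjusted p was 0.359 in the same exact test.

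High L-strand pairs were mostly shared between native and synthetic mtDNA (9 in both, 1 in synthetic mtDNA alone), while the rank correlation over all pairs was lower. In 123 pairs usable in synthetic mtDNA and in at least 5 native preparations, L-strand rates had a Pearson r of 0.993 and a Spearman rho of 0.413, and native and synthetic rates lay within 5 percentage points at 114. Of these pairs, 9 were at 50% or more and 107 under 5% in both kinds of mtDNA, and 3 lay between in both. The other 4 differed in class: 1 was at 50% or more in synthetic mtDNA and below it in native mtDNA, 2 were under 5% in synthetic mtDNA and not in native mtDNA, and 1 was under 5% in native mtDNA and not in synthetic mtDNA. The largest differences were -15.4 and 12.5 percentage points (native minus synthetic), and the first belonged to pair 12362 in ND5, at 36.0% in native and 51.4% in synthetic mtDNA. On the H strand r was 0.514, rho was 0.391 and all 123 pairs lay within 5 percentage points. These coefficients describe pairs, which share libraries and reads and are not replicates. The L-strand rho mostly ranks the 107 pairs under 5% in both kinds of mtDNA, and 23 of the 123 pairs had equal L-strand rates. At the L-strand depths, 3 unconverted reads amount to 4.8 to 11.5%. The rho therefore cannot tell whether native and synthetic mtDNA order these pairs differently.

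**Figure D2:**
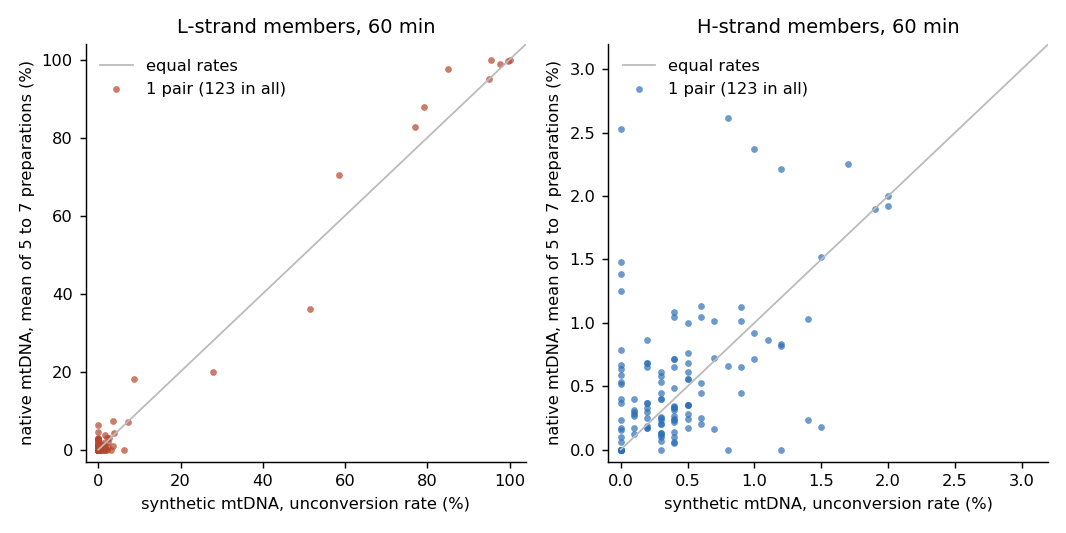
Unconversion rate (%) after 60 min in native mtDNA (mean of 5 to 7 preparations, vertical) against synthetic mtDNA (1 library, horizontal) for 123 CpG pairs, L-strand members on the left and H-strand members on the right on a scale to 3.2%; the grey line marks equal rates. L-strand members fall in a dense group near 0% and a sparse one above 50% in both kinds of mtDNA, and H-strand members lie under 3%.

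The CpG context was compared with the nearest L-strand cytosine outside CpG, which lay 1 to 14 bases away (median 3). How many reads covered both was not measured, and coverage could differ. At pair 4796 in synthetic mtDNA it was 425 reads for the member and 188 for the neighbour. In the same library it was 844 and 828 at pair 13924, and 249 and 260 at pair 14954. Cytosines this close can lie in the same reads, so the neighbour is not an independent control. The member minus its neighbour averaged 0.0511 ± 0.156 percentage points (SD, n = 8), with 4 of 8 libraries above 0, and the exact sign-flip permutation test gave p = 0.391. Library by library the difference was -0.0284, 0.0896 and 0.241 in ESC preparations 1 to 3, 0.209 and -0.0938 for brain, -0.0134 and -0.186 for liver, and 0.190 for synthetic mtDNA. Between 48 and 205 pairs entered per library. The sign of this mean turned with the choice of pairs and of neighbours: it was -0.0806 over the pairs usable in all 8 libraries and -0.0694 when the nearest cytosines on each side were averaged. On the H strand the nearest non-CpG cytosine lay 1 to 66 bases away (median 4), and the member minus its neighbour averaged -0.0597 ± 0.0884 percentage points, with 2 of 8 libraries above 0 and p = 0.109 in the exact sign-flip test. After Benjamini-Hochberg adjustment over the 9 tests this sign-flip p was 0.246. With a coverage minimum of 30 the H-strand difference was -0.0911 (exact sign-flip p = 0.0156), and with rates pooled over reads -0.0868 (exact sign-flip p = 0.0078). These p-values are unadjusted, and the other 13 of 15 alternatives did not pass 0.05.

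No difference between native and synthetic mtDNA was detected in this contrast, in a design that cannot reach 0.05. In the 45 pairs usable with their neighbour in all 8 libraries, the L-strand member minus its neighbour averaged -0.0800 ± 0.121 percentage points (SD, n = 7) in native mtDNA and -0.0844 in synthetic mtDNA, a native minus synthetic difference of 0.00444. In the exact permutation test p was 1. The native differences from synthetic mtDNA ranged from -0.153 to 0.187 percentage points, and without brain preparation 2 the native minus synthetic value was 0.204.

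Pair by pair, the L-strand member followed its neighbour, with which it can share reads. Over 207 pairs with a mean in at least 1 library, 189 (91.3%) lay within 5 percentage points of the neighbour, 9 were higher by more and 9 were lower by more, with a Pearson r of 0.988 and a Spearman rho of 0.753 across pairs. The high pairs had high neighbours: at pair 13924 the non-CpG cytosine 4 bases on averaged 99.8%, at pair 4796 the one 2 bases before averaged 99.4%, at pair 14954 the adjacent one 98.8%, at pair 4353 the adjacent one 96.3% and at pair 12541 the one 2 bases before 85.7%. Pair 7140 was the widest exception of the 207. The cytosine 2 bases before it had at least 10 reads in only 4 libraries, and was at 60.0% in ESC preparation 3, 82.6% in brain preparation 1, 50% in liver preparation 1 and 48.7% in synthetic mtDNA, each below the pair's own L-strand rate in that library, by 22.7 percentage points on average. This gap was present in synthetic mtDNA as well, and coverage of the neighbour was 10 to 39 reads.

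Among pairs usable with their neighbour in all 8 libraries, the 5 whose L-strand member exceeded its neighbour most were pair 10074 (7.15 against 5.49%), pair 12541 (86.9 against 85.7%), pair 12272 in ND5 (1.15 against 0.338%), pair 5993 in COX1 (0.713 against 0.138%) and pair 963 in mt-Rnr1 (1.13 against 0.575%). The 5 at the other end were pair 5439 in COX1 (0.375 against 2.60%), pair 4353 (94.96 against 96.3%), pair 8905 in COX3 (0.225 against 1.48%), pair 1871 in mt-Rnr2 (2.80 against 3.68%) and pair 9072 in COX3 (0.213 against 0.963%). All 10 gaps were under 2.5 percentage points. At pair 5439 the neighbour was higher than the CpG member in each of the 8 libraries, synthetic mtDNA included, where the values were 1.6 and 0.3%.

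**Figure D3:**
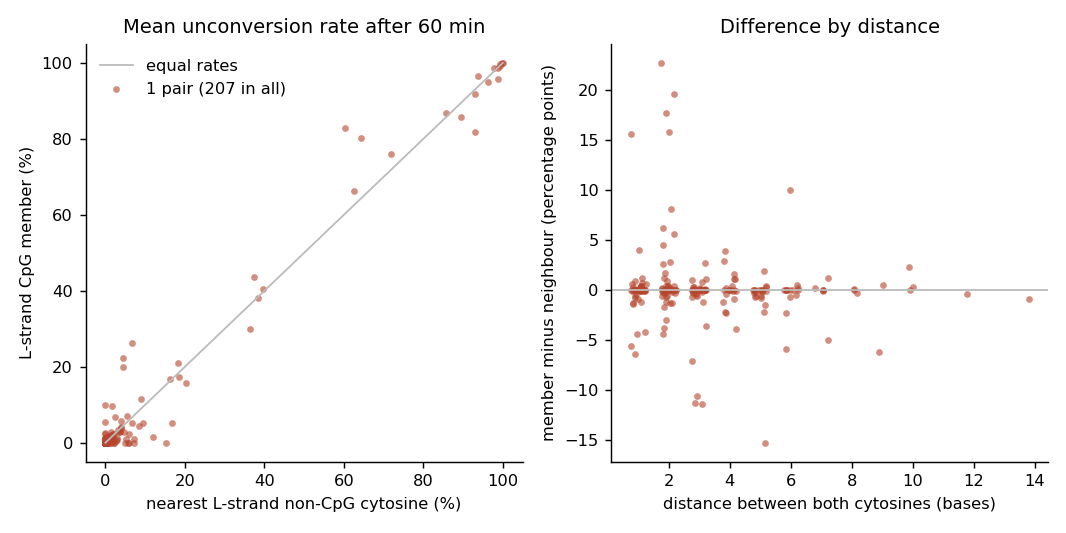
Left, mean unconversion rate (%) after 60 min of the L-strand CpG member (vertical) against its nearest L-strand non-CpG cytosine (horizontal) for 207 pairs, with a grey line at equal rates; right, member minus neighbour (percentage points) by the distance between them in bases. Points follow the line from 0 to 100%, 189 pairs lie within 5 percentage points of it, and differences are spread on both sides of 0 at short distances.

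The high L-strand pairs were placed where the L strand has few guanines. In the 50 flanking bases (25 on each side, the pair's own guanine left out), the 17 pairs with a mean L-strand rate of 50% or more had a median of 2 guanines (0 to 6), the 22 pairs from 5 to under 50% a median of 4 (2 to 10) and the 170 pairs under 5% a median of 8 (2 to 14). These means rest on 1 to 8 libraries of 60 min. Among the 17, pairs 8047 and 15081 were usable at 60 min in synthetic mtDNA alone. Of the pairs with 0 to 3 guanines, 15 of 30 (50%) were high, against 1 of 39 with 4 or 5, 1 of 44 with 6 or 7, and 0 of 96 with 8 or more. Across 209 pairs the L-strand rate had a Pearson r of -0.566 and a Spearman rho of -0.435 with the number of guanines, and the H-strand rate 0.0104 and 0.0221. Cytosines in the same window had a weaker relation with the L-strand rate, with r = 0.201 and rho = 0.141. The 6 sequences of high pairs printed above have 0, 0, 3, 0, 3 and 2 guanines in this window, and the 5 contrast sequences 7, 8, 7, 9 and 9. The study's methods left out reads with nearly all cytosines unconverted before rates were calculated. The deposited values hold L-strand rates up to 100%, as at pair 13924 with 844 of 844 reads unconverted in synthetic mtDNA after 60 min. They appear to precede that step, and without single reads the part of such reads in these rates was not tested. As another possibility, the study proposes that library production copied the copies of some H-strand fragments again. If such a fragment held no cytosine, its reads would align to the L strand and count as unconverted. An H-strand stretch without cytosine is an L-strand stretch without guanine. The part of such copies in these rates was not tested either.

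**Figure D4:**
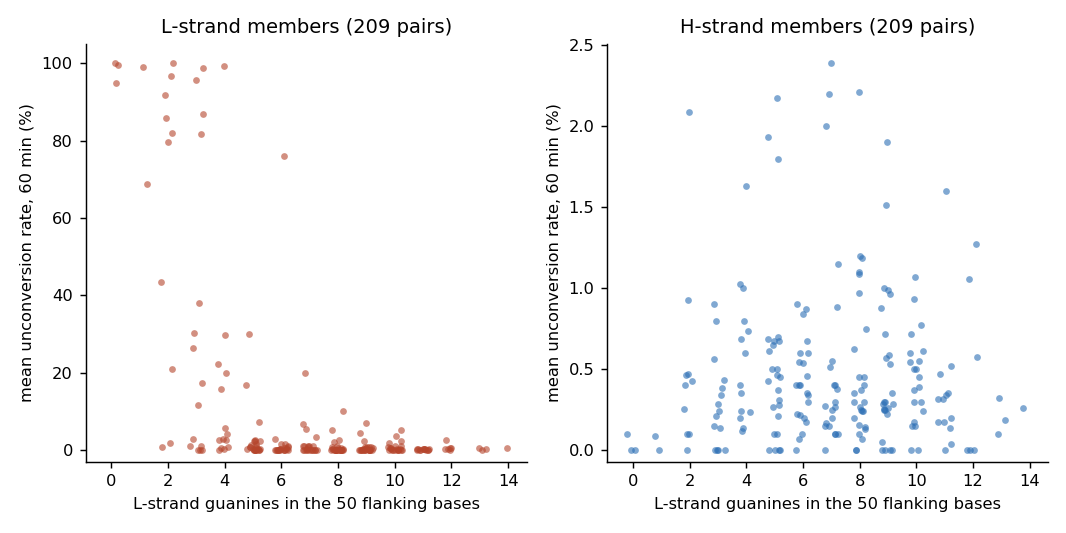
Mean unconversion rate (%) after 60 min of the L-strand (left) and H-strand (right, scale to 2.5%) members of 209 CpG pairs against the number of L-strand guanines in the 50 flanking bases. L-strand rates of 50% or more stand at 0 to 6 guanines, 15 of the 17 at 3 or fewer, and H-strand rates show no such order.

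By gene, none of the 47 usable pairs in the rRNA genes was high on the L strand, and their mean L-strand rate was 0.691%, against 13.7% over 134 pairs in protein genes, 2.73% over 10 in tRNA genes, 9.07% over 15 in the control region and 0.962% over 3 between genes. In protein genes 16 pairs were high, 3 of them among the 4 usable pairs of ND2, and the control region had 1, pair 16282. COX1 had 30 usable pairs and none high, with a highest mean of 6.80%. The order was not the same on the H strand, where the mean was 0.701% in rRNA genes, 0.396% in protein genes, 0.323% in tRNA genes and 0.404% in the control region. By the base after the CpG, 10 of 70 pairs followed by A were high, 6 of 46 by C, 1 of 48 by T and 0 of 45 by G. By the base before it, 8 of 72 pairs after A were high, 5 of 51 after C, 4 of 68 after T and 0 of 18 after G. These are descriptions without tests, and guanines next to the pair are part of the window counted above.

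Treatment time was followed within preparations. Over pairs usable at both 5 and 60 min, the H-strand rate fell by 30.7, 32.7, 29.9, 29.8 and 27.7 percentage points in ESC 1, ESC 2, brain 1, liver 1 and synthetic mtDNA, with a mean of 30.2 ± 1.81 (SD, n = 5). The L-strand rate fell by 32.04, 30.7, 30.03, 28.9 and 34.7 percentage points, with a mean of 31.3 ± 2.23. Both fell in 5 of 5 preparations, and p was 0.0625 in each exact sign-flip permutation test, the smallest that 5 preparations allow (0.188 after adjustment over the 9 tests). Over pairs usable at all 4 durations (113 to 160 a preparation), the native L-strand means were 37.6 to 41.3% at 5 min, 8.92 to 17.0% at 15 min, 7.47 to 10.5% at 40 min and 8.02 to 9.75% at 60 min, and the H-strand means 30.2 to 33.4%, 2.93 to 9.74%, 0.475 to 0.559% and 0.345 to 0.502%. Synthetic mtDNA had 43.1, 12.3, 9.63 and 10.01% on L and 28.1, 3.10, 0.431 and 0.431% on H. From 40 to 60 min the means moved by less than 1 percentage point on both strands, and the L-strand mean stayed above the H-strand mean. ESC preparation 1 stood apart at 15 min, at 17.0% on L and 9.74% on H, where the other native preparations were at 8.92 to 11.1% and 2.93 to 3.07%.

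**Figure D5:**
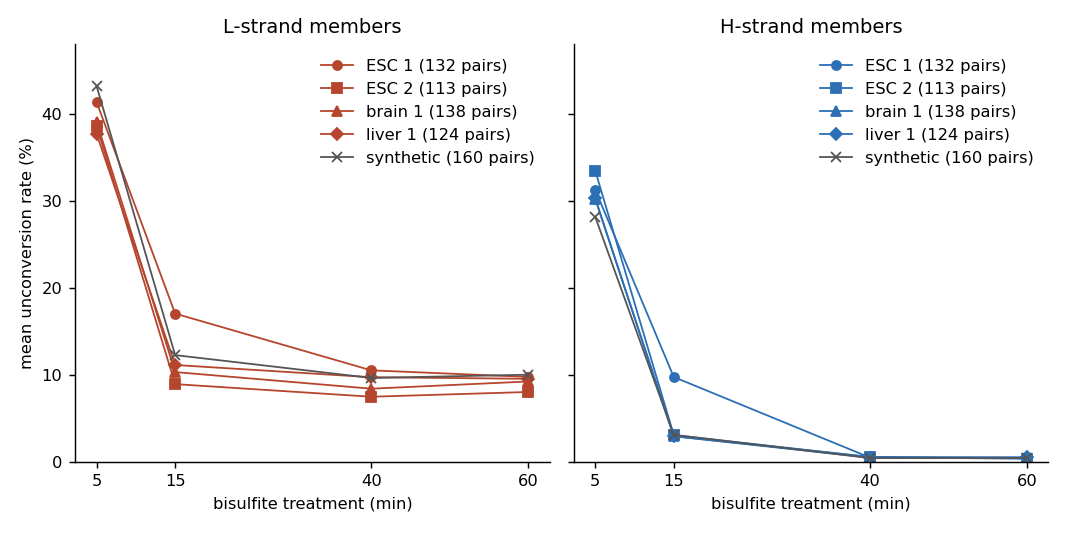
Mean unconversion rate (%) of L-strand (left) and H-strand (right) members against bisulfite treatment (min) in the 5 preparations treated for 4 durations, over pairs usable at all 4 (113 to 160, given in the legend); each line is 1 preparation, and synthetic mtDNA is grey. The H-strand lines end at 0.345 to 0.502% at 60 min and the L-strand lines at 8.02 to 10.01%.

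Pairs that were high at 60 min had been high from the start. In the 5 preparations, the pairs at 50% or more at 60 min averaged 94.1 to 97.2% on L at 5 min, with 73.9% as the lowest, while their H-strand members averaged 17.9 to 23.6% at 5 min. The other usable pairs averaged 32.5 to 39.9% on L and 29.2 to 33.8% on H at 5 min. No pair under 50% at 5 min was at 50% or more at 60 min, in any of the 5. Since mean rates fell with treatment time in each preparation, few pairs could have risen in this way. Coverage moved with these rates: of the 89 to 99 pairs at 50% or more at 5 min, 23.2 to 35.5% were still usable at 60 min in native preparations and 61.1% in synthetic mtDNA, against 75.0 to 83.6% and 95.6% of the pairs under 50%. The pairs lost had averaged 70.1 to 83.4% on L at 5 min and the pairs kept 38.2 to 45.4%, so L-strand means at 60 min describe the pairs that were still covered. In ESC preparation 3, the 65 pairs usable at both 60 and 90 min averaged 8.39% and 9.49% on L and 0.900% and 1.57% on H, and the same 5 pairs were at 50% or more at both times. This step has no replicate.

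At 5 min CpG members lay slightly below their neighbours. The L-strand member minus the nearest L-strand non-CpG cytosine averaged -1.65 ± 0.719 percentage points (SD, n = 4) in native mtDNA and -1.61 in synthetic mtDNA, and the same difference on the H strand was -1.20 ± 0.373 and -1.58. The synthetic values lay within the range of the native ones on both strands, and these differences were not tested.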

How the data were processed

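Per the labels and the study's methods, mtDNA was linearised with BglII, mixed with λDNA, heat-denatured, treated with 9.2 M bisulfite and sequenced on a MiSeq, and the first reads were trimmed with Trim Galore and mapped to mm10 with Bismark in its PBAT mode. Tool versions are not given in the sources used here. The authors deposited, per cytosine and strand, the percent of unconverted reads to 1 decimal and the coverage as a count of reads, with no minimum, not normalised and not corrected for incomplete conversion. λDNA values were not analysed here.

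From these files, unconverted reads were taken as percent times coverage, rounded. A library's rate is the mean over its usable pairs (coverage of 10 or more on both strands). Groups came from the sample titles, and 0 of 276 pairs of libraries had identical coverage over the pairs. Native and synthetic mtDNA were compared over pairs usable in all 8 libraries of 60 min, the neighbour contrasts over usable pairs whose neighbour also had 10 reads, by exact permutation tests over preparations. Single cytosines were tested by Fisher's exact test when at least 10 reads covered them in synthetic mtDNA and in 1 or more preparations each of ESC, brain and liver, and by limma 3.58.1 (R 4.3.3) on the empirical logit with an offset of 0.5. Summed reads hide the spread between preparations. Durations were paired by preparation, which the titles give as biological replicate numbers. Counting limits of 3 reads cover counting error only. Both scripts across many sites were tested on simulated data. Python 3.11.15, pandas 2.3.3 and scipy 1.17.1 were used.

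The pairs and lists were chosen with earlier results of these data known. The naming rule took the 5 pairs with the highest L-strand mean, H-strand mean and lower-strand mean among pairs usable in all 8 libraries of 60 min, the 5 largest and 5 smallest L minus neighbour differences, and pairs called in Fisher's test, of which there were 0. Pairs 15081, 4064, 12362, 16282, 8047, 685, 351, 354 and 263 were named after their values were seen. Alternatives were coverage minimums of 20 and 30, pooled rates, medians, libraries of 40 min, other pair and neighbour sets, and leaving out each preparation.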

Additional observations from a re-analysis of the deposited data

Results flagged for a closer look

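In 28 sets of native library values tested for a single library far from the others, 4 stood out, where chance marks about 1 in 20. The sets share libraries and rates, so the 4 are not separate events and their number cannot be weighed against that share. After 15 min, the mean H-strand rate of ESC preparation 1 was 10.005%, against 3.003 to 3.016% in the other 3 native preparations. After 60 min, the other 3 all belonged to brain preparation 2: its mean L-strand rate was 12.6% (8.35 to 9.73% in the other 6), its L minus H was 12.0 percentage points (8.02 to 9.28) and its number of usable pairs was 51 (126 to 163). Over the 49 pairs common to all libraries, the native means ranged from 11.5 to 13.1%.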

How the results depend on the processing

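Of 128 alternative values, 111 were sorted as unchanged, with no turn of sign and no change of side of 0.05. These include some medians that fell to exactly 0, and the 11 counts of members called, which have no p-value. They also include values whose tests cannot pass 0.05, those of native against synthetic mtDNA and of paired durations. For these only the sign could change. Native minus synthetic on L thus counted as unchanged at 0.00213 with own pairs and at 4.39 with pooled rates, against 0.524 as reported. L minus H after 60 min was 0 as a median over pairs and 8.80 percentage points in the 5 libraries of 40 min, where the exact test cannot pass 0.05. It was 8.67 to 9.24 without each native preparation. The H-strand member minus its neighbour passed 0.05, unadjusted, in 2 of 15 alternatives: with a coverage minimum of 30 (-0.0911) and with pooled rates (-0.0868). The L-strand member minus its neighbour was -0.0806 over the pairs usable in all 8 libraries and -0.0694 against the mean of both sides. Native minus synthetic turned to -0.286 on L and -0.129 on H as medians over pairs, and L minus H to -0.147 with each library's own pairs. With pooled rates it was 4.39 on L. The native minus synthetic difference of member and neighbour was -0.0109 with a minimum of 30, -0.159 with own pairs and -0.103 with both sides, and -0.0124 to 0.204 without each native preparation. The cause of these changes was not tested. Members called stayed at 0 in all 11 alternatives. With no replicate block, and each library's own pairs, 5 min minus 60 min was 30.4 on H and 43.7 on L percentage points (exact permutation p = 0.0079 for each). No paired analysis was possible for native against synthetic mtDNA because the synthetic preparation has 1 library per duration and no counterpart among the native ones. L-strand coverage limits the pairs most.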
